A study of Mus musculus with 66 samples.

Results

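Nanog and Dppa3 are neighbouring genes on mouse chromosome 6, and both were chosen by name from the deposited expression table, where they are 2 of 13957 genes. Nanog spans 122707489 to 122714633 and Dppa3 spans 122626424 to 122630271 in RefSeq positions on GRCm38.p6, with 77217 bases between them. RNA-seq was made from mouse embryonic stem cells, an E14Tg2a derivative of genotype 129/Ola in which the hormone auxin triggers degradation of the nuclear receptors Esrrb and Nr5a2. The degradable receptors are carried by the libraries without auxin as well. There were 54 RNA libraries in 18 groups of 3. The arms without and with auxin were each sampled at 9 stages, namely asynchronous cells, cells arrested in mitosis, and cells at 7 times up to 120 minutes after release from the arrest. Nr5a2 binding came from 12 ChIP-seq libraries of wild-type E14Tg2a cells, with Nr5a2 and input each in interphase and in mitosis, and was deposited as a single list of 35266 peaks.

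Nanog encodes a homeodomain transcription factor that sustains the self-renewal of embryonic stem cells. It is one of the genes through which Esrrb, Nr5a2 and other factors of the naive pluripotency network act on each other. Dppa3, also called Stella or PGC7, encodes a small protein of oocytes, early embryos and germ cells that protects DNA methylation marks after fertilization. Both genes lie in a cluster with Gdf3 and Slc2a3 that is known for activity in pluripotent cells. During mitosis most transcription stops, and bookmarking is the term for factors that stay on mitotic chromosomes and may help genes restart afterwards.

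Expression was given as TPM, which is scaled for library size and gene length, and the authors' mean of 3 libraries is the only value per group. No value therefore has a replicate error, no difference between groups could be tested, and the depth per library is unknown. The listed genes summed to between 17155 and 49059 TPM per group, lowest in mitosis and highest at 60 minutes, far below the total of the unit. Whether exons alone or whole genes were quantified is not given in the sources used here. RefSeq holds 2 pseudogene copies of Nanog and 1 of Dppa3, and whether reads were shared with them is not known, so both levels carry that uncertainty. Of 10 embryonic stem cell markers 9 were listed, with a summed level of 40.4 to 155 TPM per group, and Sox2 was not listed. The 5 listed primitive endoderm markers summed to at most 0.627 TPM and the 3 listed 2-cell-like markers to at most 0.602 TPM. Of the 8 fibroblast markers 3 were listed, with Col1a1 and Thy1 at or below 0.220 TPM and the matrix gene Fn1 at up to 15.1 TPM.

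The Nanog promoter is shown because a peak of the Nr5a2 list covers it whole. The sequence is the 250 bases before the annotated start of Nanog, on the plus strand at chr6:122707239-122707488 in GRCm38.p6, from RefSeq. Capitals mark the octamer letters TTTGCAT and the Sox letters ACAATG with 1 base between them, known as the site where the pluripotency factors Oct4 (encoded by Pou5f1) and Sox2 bind side by side.
Nanog promoter: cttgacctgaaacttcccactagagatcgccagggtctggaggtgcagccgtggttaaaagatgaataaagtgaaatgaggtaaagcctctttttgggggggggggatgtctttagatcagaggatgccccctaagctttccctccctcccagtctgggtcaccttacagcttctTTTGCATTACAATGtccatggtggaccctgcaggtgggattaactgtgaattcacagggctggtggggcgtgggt

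The capitals run from 75 to 62 bases upstream of the start. Of 32851 promoter windows of all genes in the RefSeq table, 2 (0.00609%) held these letters on either strand, and both were windows of Nanog. The letters were searched because they are known from this gene, so that rarity is not a result. The extended receptor motifs TCAAGGTCA and TCAAGGCCA, searched on both strands, were in neither of the 2 Nanog windows, as in most windows, since 0.423% and 0.591% of all windows held them. The shorter motif AAGGTCA, which is contained in the first, was in neither Nanog window and in 4.72% of all windows. AAGGCCA, contained in the second, was in 1 of the 2 Nanog windows, on the minus strand, 97 bases after the first annotated start, and in 6.2% of all windows. No promoter window of Dppa3 was matched in the table.

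In deposited TPM, Nanog RNA in cells that kept both receptors stayed near its mitotic level for 40 minutes, was about doubled at 50 and 60 minutes, and ended below the mitotic level. It stood at 3.58 TPM in asynchronous cells and at 3.35 TPM in mitosis. After release it stood at 3.33 TPM at 20 minutes, 2.89 at 30, 3.55 at 40, 6.58 at 50, 7.02 at 60, 3.88 at 90 and 2.42 TPM at 120 minutes. The 50 and 60 minute groups were thus the highest of the 9, and the 120 minute group was the lowest. The step from 40 to 50 minutes was 1.85-fold. The 60 minute level was 2.10-fold the mitotic level and 1.96-fold the asynchronous level. How far neighbouring stages in this order differ beyond the spread of libraries cannot be said from group means.

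Many genes were high at 60 minutes, so the Nanog pulse has to be read against the whole table. Summaries over genes use the 8999 genes that reached at least 1 TPM in at least 1 group, and differences are on the log2(TPM + 1) scale, which understates changes of low genes. Nanog at 60 minutes was 0.88 above mitosis on that scale, while the median gene was 1.01 above. By 60 minutes 95.4% of these genes exceeded their mitotic level and 45% had their highest level there, so neither sets Nanog apart. Relative to the median gene, Nanog at 60 minutes was therefore slightly lower than in mitosis (-0.13). Nanog made up 0.0195% of the listed TPM in mitosis, 0.0143% at 60 minutes and 0.00594% at 120 minutes.

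The later decline of Nanog was larger than that of most genes. From 60 to 120 minutes the log2 change was -1.23 for Nanog and -0.17 for the median gene. A decrease of 2-fold or more on this scale was found in 4.73% of genes, and 213 genes had a lower value than Nanog. At 120 minutes Nanog was 0.35 below its mitotic level, a position shared by 2.29% of genes, while the median gene was 0.81 above. Being above mitosis at 60 minutes and below it at 120 minutes was found in 90 genes (1%).

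With auxin the Nanog pulse peaked at the same time and had a smaller height. Nanog stood at 2.31 TPM in asynchronous cells and at 2.51 TPM in mitosis. After release it stood at 2.84 TPM at 20 minutes, 2.31 at 30, 3.16 at 40, 4.34 at 50, 4.35 at 60, 1.85 at 90 and 1.25 TPM at 120 minutes. The highest groups were again 50 and 60 minutes, and the 90 and 120 minute groups were both below mitosis. At 90 minutes the level was 0.74-fold that of mitosis with auxin and 1.16-fold without. The gain from mitosis to 60 minutes was 1.84 TPM with auxin and 3.67 TPM without. As a ratio to the mitotic level of the same arm, 60 minutes was 1.73-fold with auxin and 2.10-fold without. The step from 40 to 50 minutes was 1.37-fold with auxin. From 60 to 120 minutes the log2 change was -1.25, against -0.09 for the median gene, and 4.02% of genes had a decrease of 2-fold or more. The level at 120 minutes was 0.65 below mitosis, where 2.41% of genes lay below. The decline was thus of like size in both arms, at 2.90-fold in TPM without and 3.49-fold with auxin, and that pair of values was not tested against each other.

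Dppa3 was expressed at a far lower level and was also highest at 60 and 50 minutes, with a different rise and fall. In TPM without auxin, Dppa3 was 3.10-fold its mitotic level at 40 minutes and 4.74-fold at 90. Nanog was 1.06-fold and 1.16-fold at these times. Without auxin Dppa3 stood at 0.338 TPM in asynchronous cells and 0.146 TPM in mitosis. After release it stood at 0.194 TPM at 20 minutes, 0.233 at 30, 0.453 at 40, 0.760 at 50, 1.0004 at 60, 0.693 at 90 and 0.382 TPM at 120 minutes. Mitosis was the lowest group for Dppa3, unlike for Nanog, and 120 minutes was close to the asynchronous level. The 60 minute level was 6.84-fold the mitotic level in TPM. On the log2(TPM + 1) scale that is 0.80, below the 1.01 of the median gene, and the pseudocount of 1 exceeds most Dppa3 levels. Dppa3 reached 1 TPM only in the 60 minute groups and in the 50 minute group with auxin, and so passed the filter through the groups where it was highest.

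With auxin Dppa3 reached a higher pulse at 50 and 60 minutes. It stood at 0.419 TPM in asynchronous cells and 0.127 TPM in mitosis. After release it stood at 0.263 TPM at 20 minutes, 0.188 at 30, 0.385 at 40, 1.09 at 50, 1.46 at 60, 0.674 at 90 and 0.453 TPM at 120 minutes. The order of the stages was again led by 60, 50 and 90 minutes with mitosis last. The 60 minute level was 11.5-fold the mitotic level in TPM. Dppa3 made up 0.00204% of the listed TPM at 60 minutes without and 0.00314% with auxin.

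**Figure D1:**
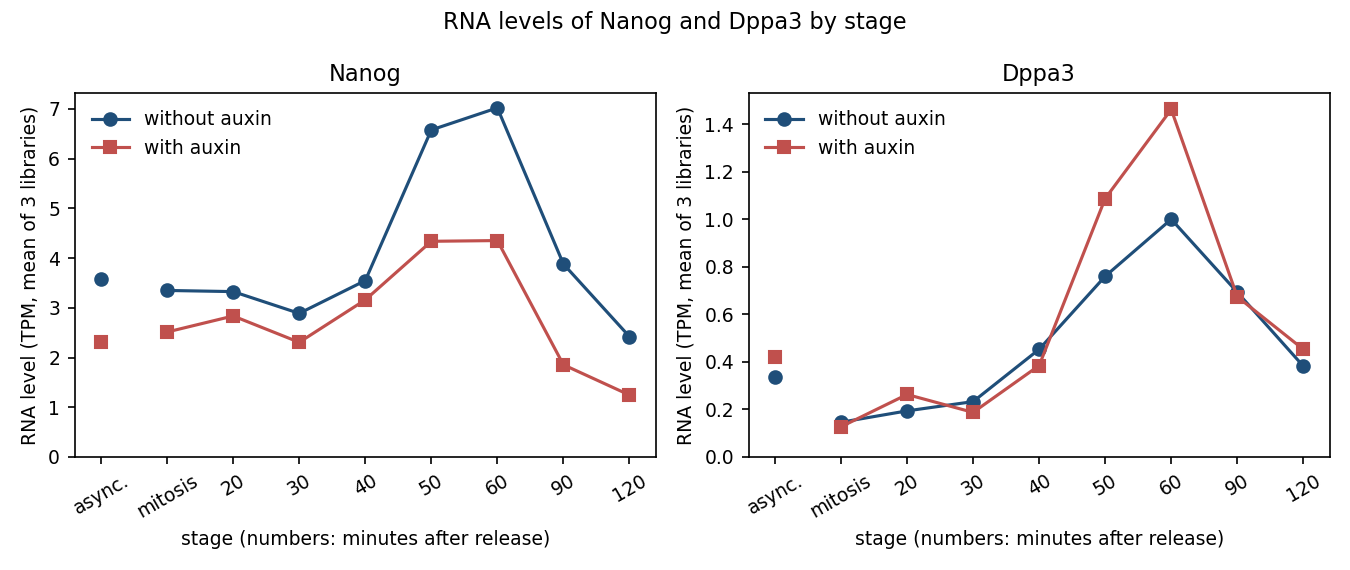
RNA level in TPM (vertical axis, authors' mean of 3 libraries, no error available) at each stage for Nanog and Dppa3, without auxin (circles) and with auxin (squares); lines join mitosis and the release times, and the spacing of stages is not to scale in time. Both genes are highest at 60 minutes, where Nanog stands at 7.02 TPM without and 4.35 TPM with auxin and Dppa3 at 1.0004 and 1.46 TPM. Scaled to the median gene, Nanog at 60 minutes is below mitosis in both arms and Dppa3 in the arm without auxin.

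The comparison of arms asks how the neighbours differ when both receptors are degraded. None of the RNA libraries used here had auxin in cells without the degradable receptors, and both receptors go together, so auxin itself, loss of Esrrb and loss of Nr5a2 cannot be told apart. In bulk RNA, fewer cells with the transcript and less transcript per cell cannot be told apart either. Nanog was lower with auxin at 9 of 9 stages, as were 4.41% of genes. The level with auxin as a percentage of that without was 64.7% in asynchronous cells and 75.0% in mitosis, so the difference was present before release. It was 85.3% at 20 minutes, 79.8% at 30 and 89.1% at 40 minutes. It was 66.0% at 50 minutes, 62.0% at 60, 47.8% at 90 and 51.5% at 120 minutes. The arms were therefore closest at 40 minutes and farthest apart at 90 minutes, where Nanog with auxin was at less than 50% of its level without.

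Placed among the 8999 genes, Nanog was less extreme in the first 40 minutes after release than at any other stage. Ranked from the most negative log2 difference, it was number 86 in asynchronous cells and 76 in mitosis. It was number 483 at 20 minutes, 209 at 30 and 819 at 40 minutes, then 31 at 50, 29 at 60, 17 at 90 and 44 at 120 minutes. At 60 minutes its difference was -0.58, just short of 1.5-fold lower on the log2(TPM + 1) scale, and at 90 and 120 minutes it was -0.77 and -0.61, past 1.5-fold on that scale. Of all genes 0.4% were past 1.5-fold lower at 90 minutes and 0.545% at 120 minutes. The mean over the 7 release times was -0.43 with a range of -0.48 to -0.37 over the fits without 1 of the times. Averaged in this way, 21 genes had a lower value than Nanog, and the median gene was at 0.02. Mean levels over the release times were 4.24 TPM without and 2.87 TPM with auxin.

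Dppa3 showed no common direction. Its log2 difference was 0.08 in asynchronous cells and -0.02 in mitosis. It was 0.08 at 20 minutes, -0.05 at 30, -0.07 at 40, 0.25 at 50, 0.30 at 60, -0.02 at 90 and 0.07 at 120 minutes. Dppa3 was thus lower with auxin at 4 of 9 stages and higher at 5. In TPM its level with auxin was 143% of that without at 50 minutes and 146% at 60, but also 136% at 20 minutes, 124% in asynchronous cells and 80.5% at 30 minutes. The mean over the 7 release times was 0.08, and it went to 0.05 without 50 minutes and 0.04 without 60 minutes. Mean levels were 0.531 TPM without and 0.645 TPM with auxin.

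In the authors' deposited table Nanog is called lower with auxin and Dppa3 is not called. Of the 13957 genes 7.26% are called lower and 6.74% higher. How the call was tested, and on which stages, is not given in the sources used here. The spread of Dppa3 between libraries, at levels mostly below 1 TPM, does not show in group means.

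Nanog and Dppa3 therefore differed in their response. On the log2(TPM + 1) scale the difference of Nanog minus that of Dppa3 was below 0 at all 9 stages. It was smallest at 40 minutes (-0.06) and largest at 60 minutes (-0.88), with a mean of -0.51 over the release times. The ratio of the levels, Nanog over Dppa3 in TPM, was lower with auxin at every stage except 40 minutes. At 60 minutes it was 7.02 without and 2.98 with auxin, and at 120 minutes 6.33 and 2.75. At 30 minutes it was nearly alike, at 12.4 and 12.3. At 40 minutes it was 7.83 and 8.21, the only stage where it was not lower with auxin. The sign at 40 minutes thus depends on the scale, since the pseudocount of 1 understates changes of low genes such as Dppa3. No test of this difference was possible on group means.

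**Figure D2:**
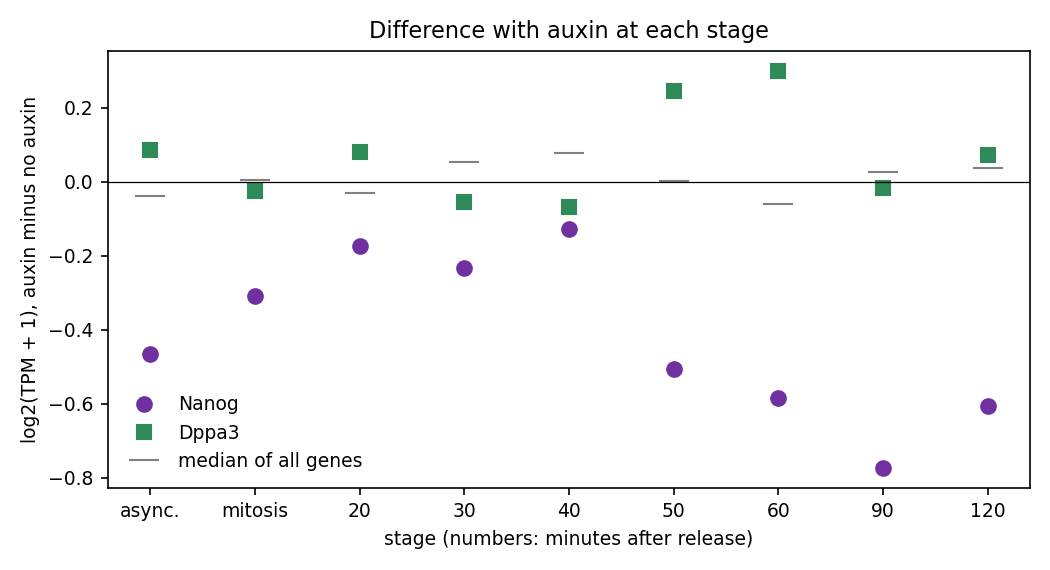
Difference in log2(TPM + 1), auxin minus no auxin (vertical axis), at each stage for Nanog (circles), Dppa3 (squares) and the median of the 8999 genes (dashes); each point is a difference of 2 group means without error. Nanog lies below 0 at all 9 stages, down to -0.77 at 90 minutes, and Dppa3 lies between -0.07 and 0.30.

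Among the neighbours, Slc2a3, next to Nanog on its far side, was lower with auxin at all 7 release times, and Gdf3, next to Dppa3, was lower at 4 of 7 with an average near 0. RefSeq places 36 genes within 500 kb of the span of the members, 20 of them protein-coding. The table lists 9 besides the members, of which 7 reached 1 TPM. Of these 7, 4 were lower on average after release, against 39.2% of all genes, and their median difference was -0.002. Slc2a3 and Phc1 are called lower and Apobec1 is called higher in the authors' deposited table, which makes 2 and 1 of the 7. Among all genes of at least 1 TPM 9.46% are called lower and 8.52% higher.

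Slc2a3 is a glucose transporter gene, and the lower end of its annotated span lies 20.3 kb beyond the start of Nanog. It had mean levels of 3.31 TPM without and 2.71 TPM with auxin. Its log2 difference was below 0 at 7 of 7 release times, as it was for 5.33% of all genes, from -0.31 to -0.09, with a mean of -0.20. Slc2a3 stood at 2.04 TPM in mitosis, 4.83 at 60 minutes and 3.16 TPM at 120 minutes without auxin. It thus shared the direction of the Nanog difference at a smaller size, and its level in TPM at 120 minutes stayed above mitosis. Phc1, a Polycomb subunit gene, had means of 6.94 and 6.09 TPM and was lower at 5 of 7 times. Its mean log2 difference was -0.14.

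Gdf3, a TGF-beta family ligand gene on the other side of Dppa3, had mean levels of 6.55 TPM without and 6.49 TPM with auxin. Its log2 difference ranged from -0.08 to 0.09 and averaged -0.01. Gdf3 stood at 2.81 TPM in mitosis, 10.5 at 60 minutes and 7.40 TPM at 120 minutes. Its level was thus far above that of Dppa3, with hardly any difference between arms. Apobec1, an RNA-editing enzyme gene, had means of 2.02 and 2.16 TPM and a log2 difference of 0.08.

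The remaining neighbours of at least 1 TPM had averages close to 0. M6pr, a lysosomal sorting receptor, had means of 5.52 and 5.55 TPM. Rimklb had 1.65 in both arms, and Necap1, an endocytosis adaptor gene, had 4.95 and 4.90 TPM. Foxj2, a forkhead factor gene, and Clec4a1, a C-type lectin gene, stayed below 1 TPM in every group, at up to 0.533 and 0.110 TPM. In deposited TPM all 7 neighbours of at least 1 TPM exceeded mitosis at 60 minutes without auxin. At 120 minutes 0 of 7 were below mitosis in either arm. On that scale a level below mitosis at 120 minutes was seen at this locus for Nanog, in both arms, as for 1.79% of all genes. Centred on the median gene, Dppa3 was also below mitosis at 120 minutes, at -0.54 without and -0.47 with auxin. Without auxin the median gene was 0.81 above mitosis, and Phc1 (0.66), Rimklb (0.16), Slc2a3 (0.45) and Necap1 (0.55) rose less. M6pr, Apobec1 and Gdf3 rose more.

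**Figure D3:**
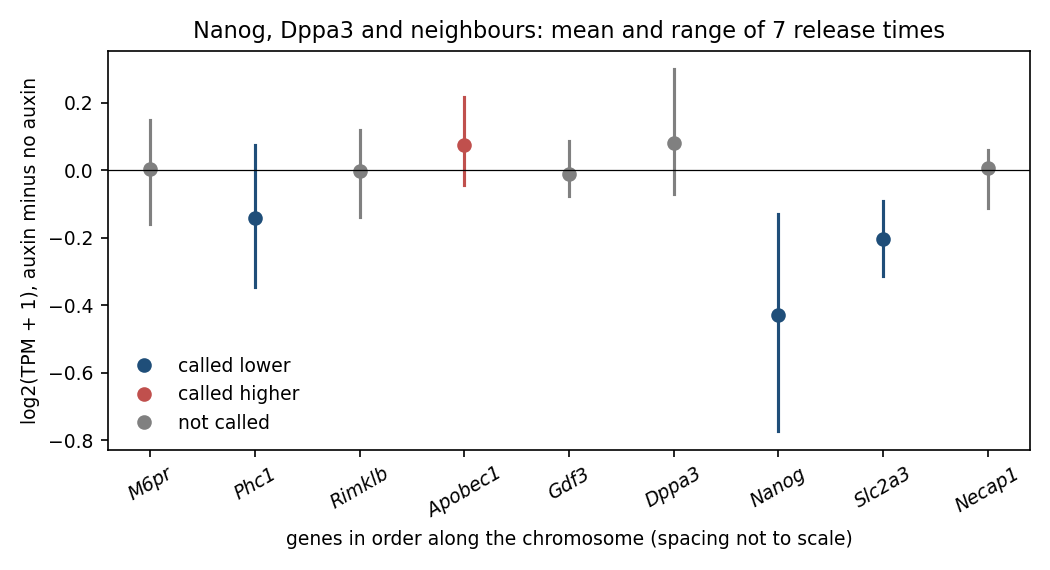
Difference in log2(TPM + 1), auxin minus no auxin (vertical axis), for Nanog, Dppa3 and the 7 neighbours of at least 1 TPM in chromosomal order; points are means over the 7 release times, bars run from the lowest to the highest of these times, and colour gives the call in the authors' deposited table. Nanog (mean -0.43) and Slc2a3 (mean -0.20) lie below 0 at all 7 times.

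The Nr5a2 list had 16 peaks within 50 kb of the span from Dppa3 to Nanog, spread over the space between the genes and both flanks. The authors marked peaks with the codes L, eB, dB and nB, whose meaning is not given in the sources used here. Of the 16 peaks 10 are L, 0 are eB, 2 are dB and 4 are nB, and of the 22 within 100 kb 12 are L, 2 eB, 4 dB and 4 nB. In the whole list 65.1% are L, 18.1% eB, 10.3% dB and 6.46% nB. Because the list gives positions and codes alone, binding at these peaks could not be compared between mitosis and interphase. Peak positions are given as the list has them, on mm10.

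At Nanog, a peak of class L at chr6:122707048-122707685 overlaps the annotated start and holds the promoter sequence printed above. Of the 14096 promoter windows of listed genes, 10.7% overlap a peak. The next peak upstream is of class dB, at chr6:122702157-122703246, with its midpoint 4.79 kb before the start. An nB peak follows at chr6:122694729-122695862 (midpoint 12.2 kb before the start), and then L peaks at chr6:122689630-122690985 (17.2 kb) and chr6:122662663-122664187 (44.1 kb). These 4 lie between the genes and overlap no annotated gene. Their lengths of 1089 to 1524 bases exceed the median of 617 bases over the list.

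The RefSeq span of Slc2a3, from 122727809 to 122802363, holds 7 peaks, 3 of class L, 3 of class dB and 1 of class nB. This count depends on that annotated span, and which transcripts reach across it was not examined. The dB peaks lie together 54.8, 58.7 and 63.1 kb beyond the start of Nanog, at chr6:122761612-122762876, chr6:122764856-122767500 and chr6:122769838-122771283. The second of them, with 2644 bases, is the longest of the peaks described here. The annotated span of Slc2a3 thus holds 3 of the 4 dB peaks within 100 kb of the span from Dppa3 to Nanog. The remaining one is that before Nanog.

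Dppa3 had the nearest peak outside its span, an L peak of 253 bases at chr6:122624534-122624787, 1637 bases from the lower end of the gene. A further L peak of 258 bases lies at chr6:122643975-122644233, 13704 bases from the upper end. Both are shorter than the median L peak of 540 bases. The L peak of 1524 bases at chr6:122662663-122664187, described above with Nanog, is nearer to Dppa3. It lies 32392 bases from Dppa3 and 43302 bases from Nanog. The nB peaks of Gdf3, at chr6:122607918-122608132 and chr6:122608243-122608989, are 18292 and 17435 bases from Dppa3. Whether peak classes go with differences between arms was not tested.

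Counted by window, the members had more peaks than the median gene in each window, except Dppa3 within 10 kb. Within 10 kb Nanog had 2 peaks and Dppa3 had 1, where the median gene had 1, and 43.6% and 70.5% of 13869 genes with a position had as many or more. Within 50 kb Nanog had 9 and Dppa3 had 8, against a median of 3, and 11.6% and 15.6% of genes had as many or more. Within 100 kb Nanog had 17 and Dppa3 had 14, against a median of 6, and 4.82% and 10.7% of genes had as many or more. Longer genes take in more sequence in such a count, and peaks of the windows overlap between the members.

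**Figure D4:**
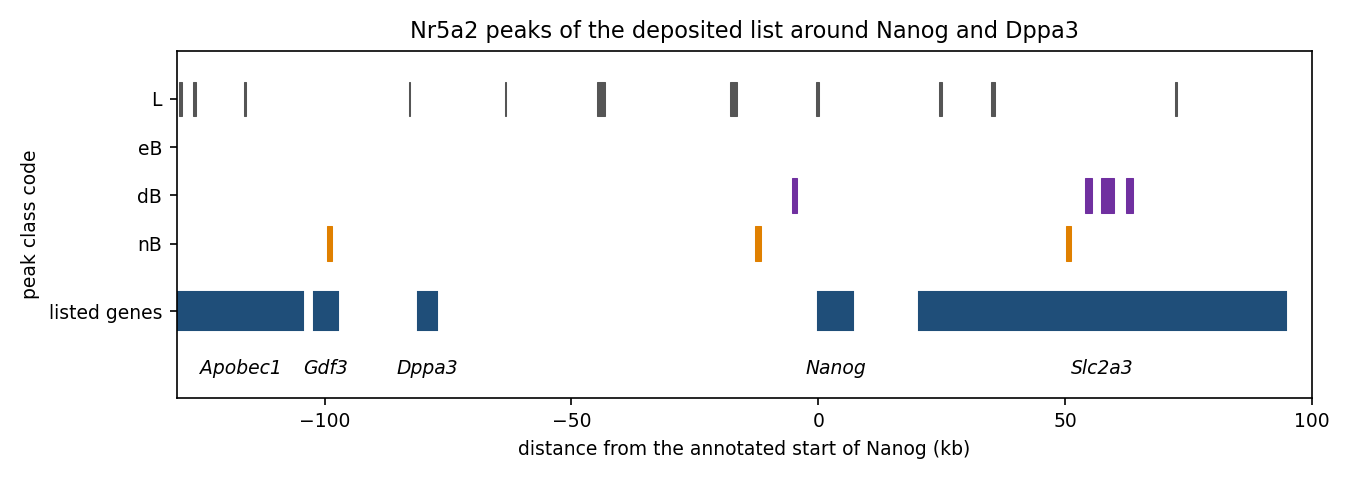
Nr5a2 peaks of the deposited list (upper rows, by class code) and listed genes (lower row) by distance in kb from the annotated start of Nanog (horizontal axis), drawn to scale. Drawn are the peaks within 50 kb of the span from Dppa3 to Nanog and those inside the annotated span of Slc2a3. A dB peak lies 4.79 kb before the start of Nanog, and 3 more lie together inside the annotated span of Slc2a3. No eB peak is among those drawn.

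Genes known to regulate Nanog were mostly lower with auxin too. Of 20 listed regulators 19 have values, 13 are called lower and 1, Tcf7l1, is called higher in the authors' deposited table, where 7.26% and 6.74% of genes are. Of the 18 that reached 1 TPM, 14 were lower on average, against 39.2% of all genes, and they had a median log2 difference of -0.13 against 0.02 over all genes. The largest difference was that of Tfcp2l1, a naive transcription factor, with means of 2.43 TPM without and 1.28 TPM with auxin (log2 difference -0.58). Nr0b1, a repressor that partners with nuclear receptors, had 1.08 and 0.542 TPM (-0.39), and Tbx3, a T-box factor, 2.30 and 1.44 TPM (-0.36). Zfp42, a zinc finger factor, had -0.33 and Klf2, a Kruppel-like activator, had -0.32. Nanog with -0.43 lay between Tfcp2l1 and Nr0b1.

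Other regulators had smaller differences. Pou5f1, which encodes Oct4, had means of 12.8 and 11.2 TPM and a difference of -0.18. The degraded receptors themselves had -0.09 for Esrrb and -0.06 for Nr5a2 in RNA, which does not measure their protein. Tcf7l1, a repressor of Nanog in the Wnt pathway, was higher with auxin at 7 of 7 times, with means of 6.11 and 6.63 TPM (0.11). Stat3, which carries the LIF signal, had 0.07 and Smad1, a BMP effector, 0.07, and neither is called.

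Genes that act with Dppa3 on DNA methylation were listed for 9 of 10 names. Of these 5 are called lower and 1, the methyltransferase gene Dnmt3b, is called higher in the authors' deposited table, against 7.26% and 6.74% of all genes. Zfp57, which protects imprints, had the largest difference, with means of 9.76 TPM without and 6.50 TPM with auxin (-0.45). Tet1 (-0.17) and Tet2 (-0.16), which oxidize methylcytosine, followed. Uhrf1, which recruits the maintenance methyltransferase and is bound by Dppa3, had means of 17.1 and 16.4 TPM (-0.05), and Dnmt1, that methyltransferase, had 8.17 and 7.98 TPM (-0.03). The median of the 8 genes of at least 1 TPM was -0.07, with 6 lower on average, against 39.2% of all genes.

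Of 12 early germ cell genes, all listed, 7 are called lower and 2 higher in the authors' deposited table, against 7.26% and 6.74% of all genes. The median over the 10 of at least 1 TPM was -0.08, with 7 lower on average, against 39.2% of all genes. Dppa5a, an RNA-binding protein gene, had means of 19.1 TPM without and 12.3 TPM with auxin (-0.53), Nanos3, a germ cell survival factor, 1.93 and 1.20 TPM (-0.40), and Tfap2c, an AP-2 factor, 2.57 and 1.73 TPM (-0.39). The germ cell RNA-binding genes Dazl, with means of 0.362 and 0.486 TPM (0.12), and Ddx4, with 0.636 and 0.729 TPM (0.07), are the 2 called higher. Dppa3, which is not called, lay between these 2 in mean level without auxin and in difference.

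The genes with the pattern most like each member were found by Pearson's r of log2(TPM + 1) over the 18 groups, given as a description of group means that share stages and scaling. For Nanog they were Calcoco2, an autophagy receptor gene (r = 0.93), Eras, a Ras gene of embryonic stem cells (0.93), Itgb7, an integrin gene (0.90), Tcf15, a transcription factor of primed cells and somites (0.90), and Pak4, a kinase gene (0.83). All 5 are called lower in the authors' deposited table, as are 7.26% of all genes, and a choice over groups of both arms partly fixes that direction. Eras, for example, stood at 0.808 TPM in mitosis, 1.76 at 60 minutes and 0.576 TPM at 120 minutes without auxin, and at 0.682, 0.974 and 0.395 TPM with auxin. It thus shared with Nanog the pulse, the smaller pulse with auxin and the late level below mitosis. Calcoco2 (0.880 TPM in mitosis and 0.902 TPM at 120 minutes) and Tcf15 (6.56 and 7.12 TPM) were above mitosis at 120 minutes without auxin.

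For Dppa3 the closest genes were Sesn3, a stress-response gene (r = 0.97), Glcci1 (0.97), Rnf122, a ubiquitin ligase gene (0.97), Rab39, a vesicle GTPase gene (0.97), and Rnaset2a, a ribonuclease gene with a close copy (0.97). Sesn3 and Rab39 are called higher in the authors' deposited table, as are 6.74% of all genes, and the other 3 are not called. Here too a choice over groups of both arms partly fixes the direction. Sesn3 stood at 0.291 TPM in mitosis, 2.77 at 60 minutes and 0.592 TPM at 120 minutes without auxin, and at 0.352, 3.12 and 0.832 TPM with auxin. Low genes with a sharp 60 minute pulse thus headed this ranking. Between Nanog and Dppa3 themselves r was 0.52, and 866 genes were closer to Nanog than Dppa3 was.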

How the data were processed

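RNA libraries were depleted of ribosomal RNA, stranded and paired-end, per the labels' protocols. The authors deposited TPM as 1 mean per group of 3 libraries. Per the submitters' processing notes, mm10 was used with STAR, RSEM, DESeq2, Bowtie2 and MACS2, whose versions and roles are not given. Arms were taken from sample titles, since the treatment label is the same for every library. Multiplied by 3, all 246530 values above 0 came out whole at 9 decimals (tolerance 0.02 of that decimal), as means of 3 libraries would. From the deposited TPM, log2(TPM + 1) differences were computed with pandas 2.3.3 and numpy 2.4.6 on Python 3.11.15, tested on simulated data. No test across libraries could be run on group means. Gene and promoter positions are from RefSeq on GRCm38.p6, matched by symbol (13869 of 13957 genes).

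The members, gene lists and rules were chosen with earlier results of these data known. Named genes are the members, listed genes within 500 kb, members of the lists, and the 5 genes most correlated with each member. Alternatives covered the pseudocount, scaling, single release times, windows and filters. A list member withheld from the text is not reported here by name.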

Additional observations from a re-analysis of the deposited data

How the results depend on the processing

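Nanog kept its lower mean with auxin under every scaling, pseudocount and left-out time tried, from -0.56 to -0.37. A value was counted as moved when it changed by over 1.5 times. With a pseudocount of 0.1 Dppa3 had a mean difference of 0.15 with auxin, and its log2 ratios to mitosis without and with auxin were 2.16 and 2.78 at 60 minutes and 0.97 and 1.28 at 120 minutes. Without 50 minutes the Dppa3 difference was 0.052 and without 60 minutes 0.043. Ratios to mitosis depend on scaling, because most genes were higher after release. For Nanog at 60 minutes, without and with auxin, they became -0.43 and -0.57 with quantile normalization, -0.13 and -0.34 with centring on the median gene, and -0.37 and -0.50 with columns rescaled to the mean listed total. For Nanog at 120 minutes they became -1.35 and -1.59, -1.16 and -1.48, and -1.30 and -1.51 under the same alternatives. For Dppa3 at 60 minutes they became 0.37 and 0.68, -0.21 and 0.18, and 0.36 and 0.67, and at 120 minutes -0.018 and 0.057, -0.54 and -0.47, and 0.030 and 0.12. The rescaling, and every alternative at 120 minutes, were chosen after seeing the data. The peaks at the locus numbered 7 within 10 kb, and upstream bases alone left 0 matches of the receptor motifs in Nanog windows. From 3 to 6 neighbours were lower over the alternatives, out of unlike totals. They were 3 of 5 within 250 kb, 4 of 9 without the filter and 6 of 7 with centring on the median gene. No paired analysis was possible because the columns are group means and carry no replicate number. For the same reason no library could be left out.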
